A study of Caenorhabditis elegans with 2 samples.

Results

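Dafachronic acids are the steroid hormones of Caenorhabditis elegans, and the 8 genes described here make, supply or read them. They were taken by name from the Ensembl annotation of the WBcel235 assembly, as 8 of 19973 nuclear protein-coding genes. Chromatin bound by DAF-16, the FOXO transcription factor at the end of insulin-like signalling, was immunoprecipitated and sequenced in whole L4 larvae of mixed sex. The larvae came from the transgenic strain XE1464, which carries the unc-119(ed3) III allele and a DAF-16 with a GFP-FLAG tag at its C-terminus, and the label for the antibody names daf-16. There was 1 group, with 2 biological replicates and no mutant, treated or untagged group, so the data show where peaks lay and not how binding changed. Whole animals were used, so a peak cannot be placed in a tissue. The labels call the replicates biological without saying how their cultures were separated.

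The hormones are made from dietary cholesterol. NCR-1 and NCR-2, homologues of the human Niemann-Pick C protein, move cholesterol within cells. The Rieske oxygenase DAF-36 and the short-chain dehydrogenase DHS-16 act on the sterol, HSD-1 resembles the hydroxysteroid dehydrogenase isomerases, and the cytochrome P450 DAF-9 carries out the last step. The nuclear receptor DAF-12 promotes reproductive growth when it holds the hormone, and without it acts with the corepressor DIN-1 to promote dauer formation, in the same decision that insulin-like signalling feeds into through DAF-16.

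A peak was counted for a gene when its summit lay from 5 kb upstream to 5 kb downstream of the annotated gene, in the list that the authors cut at an irreproducible discovery rate (IDR), on build ce11. That list held 8748 nuclear peaks. Each peak carries the authors' own score, whose scale is not stated, running from 35.4 to 1392 over these peaks with a median of 107. A score ranks a peak within its own list only. The peaks described most closely are given with their scores in the separate lists of both replicates, matched by the nearest summit within 100 bp. The thresholded peaks were the strongest entries of the pooled list, with the same summits and scores for all 8748. Those lists held 16146 and 21378 entries, background regions included, and the files give no read counts, so the depth is unknown.

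DAF-16 peaks lay densely around the receptor gene daf-12 and the corepressor gene din-1. Among the genes of hormone synthesis, daf-9 alone had peaks, all past its 3' end. Their density of 0.144 per kb of window exceeded that of 71.1% of protein-coding genes. The windows held 35 peaks, 15 at daf-12, 13 at din-1, 4 at the cholesterol transport gene ncr-1, 2 at daf-9 and 1 at ncr-2. No peak lay in the windows of daf-36, hsd-1 and dhs-16. Thus 5 of the 8 genes had a peak in the window, against 54.3% of all protein-coding genes, which is near the background. The receptor and the corepressor gene stood out by number, since 13 or more peaks were found at 0.0801% of protein-coding genes, or 16 genes, and the median gene had 1. For daf-12 that rests on the Ensembl gene start, and with the RefSeq start it had 9 peaks. No test was made over the 8 genes, which were chosen with earlier results of these data known.

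**Figure D1:**
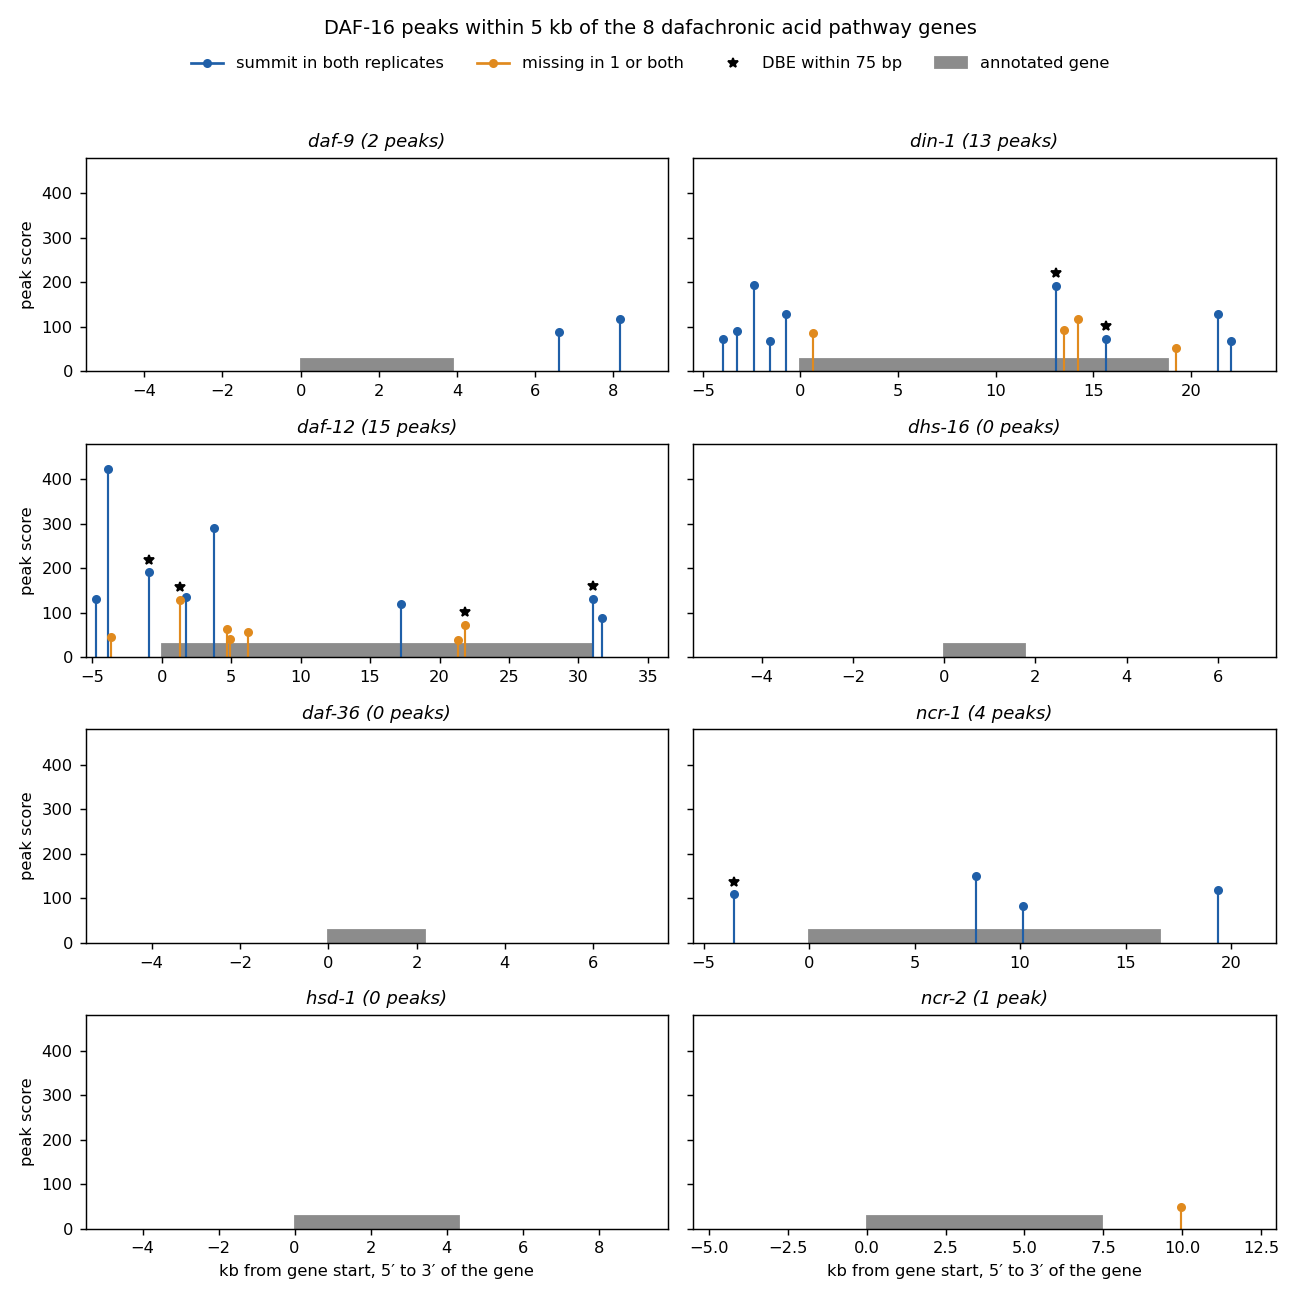
Peak score (vertical axis, authors' score of the IDR-thresholded list) against the distance of the summit from the annotated gene start in kb, for each of the 8 genes. Grey bars are the genes, blue stems the peaks with a summit in both replicates, orange stems those missing in 1 or both, and stars mark a DAF-16 binding element within 75 bp. The 28 peaks of daf-12 and din-1 fill their panels, and those of daf-36, hsd-1 and dhs-16 are empty.

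The gene daf-12 (WBGene00000908, chromosome X, 10635908 to 10666875, forward strand) had 4 peaks upstream, 9 in introns and 2 past its 3' end. Of these 15 peaks, 12 had a daf-12 start as the nearest protein-coding start, while 3 of the upstream peaks were nearer to M79.2. The strongest of all 35 peaks lay 3895 bp upstream of the gene, with a score of 422 that exceeded 96.2% of nuclear peaks. Its scores were 230 in replicate 1 and 196 in replicate 2, higher than 96.9% and 99.0% of the entries in those lists. Both replicates thus placed it near the top, and it was nearer to the start of M79.2, 3206 bp away, than to daf-12. The second strongest lay in the first part of the gene, 3789 bp past the start, with a score of 290, and with 176 in replicate 1 and 108 in replicate 2.

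The peak in the daf-12 promoter window, from 1000 bp upstream to 300 bp downstream of a transcript start, lay 892 bp upstream. It had a score of 191, with 116 in replicate 1 and 34.5 in replicate 2, so the replicates ranked it differently, above 88.2% and 75.3% of their entries. The window around it held both sequences known for DAF-16 targets. These are the DAF-16 binding element GTAAACA (DBE) and the DAF-16 associated element CTTATCA (DAE), the latter here on the reverse strand as TGATAAG, and each was looked for on either strand, at most 75 bp from a summit. A GATA site, TGATAA, lies inside the reverse complement of every DAE. The DBE began 34 bp before the summit and the DAE 25 bp after it. A DBE lay at 3 further daf-12 peaks, in introns 1323 bp and 21836 bp past the gene start and 118 bp past the gene end.

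Shown are 151 bases centred on 4 daf-12 summits, from the forward strand of the WBcel235 sequence of RefSeq. Capitals mark DBE and DAE letters. The stretches set summits with these elements nearby beside the strongest peak, which had neither in exact letters. Across its summit the strongest carries ATAAACA, which differs from the DBE in its first letter and was not counted. The 4 stretches lie at chrX:10634941-10635091, chrX:10637156-10637306, chrX:10666918-10667068 and, for the strongest, chrX:10631938-10632088.
daf-12, 892 bp upstream: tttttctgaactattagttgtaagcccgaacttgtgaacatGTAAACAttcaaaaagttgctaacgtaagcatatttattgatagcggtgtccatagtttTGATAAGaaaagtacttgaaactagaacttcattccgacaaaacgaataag
daf-12, intron, 1323 bp past the start: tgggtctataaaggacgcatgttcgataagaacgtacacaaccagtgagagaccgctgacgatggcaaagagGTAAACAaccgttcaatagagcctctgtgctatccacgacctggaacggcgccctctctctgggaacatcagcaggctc
daf-12, 118 bp past the gene end: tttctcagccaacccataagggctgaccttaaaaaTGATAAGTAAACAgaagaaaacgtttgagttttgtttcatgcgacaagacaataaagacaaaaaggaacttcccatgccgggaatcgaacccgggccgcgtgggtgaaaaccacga
daf-12, 3895 bp upstream, no DBE or DAE: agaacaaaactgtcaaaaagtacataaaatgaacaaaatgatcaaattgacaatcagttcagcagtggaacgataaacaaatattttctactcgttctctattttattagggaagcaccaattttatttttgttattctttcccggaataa

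At the third of these sites the DAE and the DBE shared 1 base, in the run TGATAAGTAAACA from 10666953 to 10666965. It lay within 75 bp of the summit but wholly outside the called interval, which ran from 10666974 to 10667138. That run stood within 75 bp of 2 of the 8748 nuclear summits, a comparison chosen after the sequence was seen. This peak had a score of 131, with 42.3 in replicate 1 and 54.6 in replicate 2. Its interval covered a transfer RNA gene and a non-coding RNA gene, F11A1.11, and the next peak, 770 bp past the gene end with a score of 88.2, and with 61 in replicate 1 and 49 in replicate 2, covered another transfer RNA gene. Transfer RNA genes have near-identical copies, so reads there can be uncertain. The peak 1323 bp past the start had a score of 129 and 107 in replicate 1, but the nearest summit of replicate 2 was 276 bp away.

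Of the 15 daf-12 peaks, 8 had a summit within 100 bp in both replicates, and the other 7 were mostly weaker. Those without a counterpart in 1 replicate included the 3 lowest scores at this gene, 37.8, 41.7 and 44.4, each missing in replicate 1. The peak at 62.8 and that at 57.4, both in introns, had a counterpart in replicate 1 and none within 100 bp in replicate 2. So did the intronic peak 21836 bp past the start, with a score of 72.8 and 64.8 in replicate 1. The intervals of the peaks at 62.8 and 41.7 overlap. The nearest replicate 2 summit was 178 bp from the former, and the nearest replicate 1 summit 124 bp from the latter. Whether those overlapping peaks are separate sites was not tested. An intronic peak 17231 bp past the start, with a DAE just outside its interval and a score of 119, was found in both, with 49.1 in replicate 1 and 33.2 in replicate 2.

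How many peaks belong to daf-12 depends on where the gene begins. The Ensembl start rests on 1 transcript, F11A1.3e.3, and the RefSeq annotation of the same assembly begins the gene 8501 bp further downstream, at 10644409. With the RefSeq bounds the window held 9 peaks instead of 15, and no promoter window of daf-12 held a peak. The strongest peak, of 422, was then 12396 bp upstream and outside the window, and the peak of 290 was the strongest in it. Under the Ensembl bounds 76 genes (0.381%) had 9 or more. The other 8 annotated starts of daf-12 had no peak in their promoter windows, including those from 10659339 on. By the same bounds 9 genes had at least as many peaks as daf-12, itself included, and 4 had more. Long genes have larger windows, and the part of length in the count was not tested. The 56 genes at least as long as daf-12 had a median of 1 peak, and 2 of them, itself included, had 15 or more. Per kb of window daf-12 had 0.366 peaks, more than 95.5% of protein-coding genes, whose median was 0.0683. Among 270 nuclear hormone receptor genes counted with it, it had the most window peaks, with a median of 1 in the family.

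The gene din-1 (WBGene00008549, chromosome II, 11614770 to 11633609, reverse strand), homologous to the mammalian corepressor SHARP, had 13 peaks, or 0.451 per kb of window, a density above that of 97.9% of protein-coding genes. Upstream lay 5 peaks in a row, 734 bp to 3957 bp from the gene start, all matched in both replicates. The farthest of them had 37.6 in replicate 1 but only 7.31 in replicate 2, above 66.4% and 37.5% of the entries. The strongest of the gene was among these 5, at 2356 bp upstream, with a score of 195. It had 95.6 in replicate 1 and 72.5 in replicate 2. It had neither a DBE nor a DAE, and its sequence carried long runs of GA repeat, 8 bases or more of which stood at 5.75% of nuclear summits. The peak nearest upstream, 734 bp from the start, had a score of 128, with 48.9 in replicate 1 and 69.0 in replicate 2. Its interval overlapped the non-coding RNA gene ZK20.8, and that of the peak 1586 bp upstream the small nucleolar RNA gene ZK20.9. A DBE lay 251 bp upstream of the gene start, and the nearest summit was 483 bp from it.

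Inside din-1 lay 5 peaks, 4 of them in the promoter window of an internal transcript start. The gene makes long and short isoforms, and the short form is the one known to act with DAF-12, but the annotation does not name which transcript encodes it. The strongest internal peak lay 433 bp upstream of the start of F07A11.6d.1, with a score of 192, and with 133 in replicate 1 and 90.6 in replicate 2. Those are the highest scores of any din-1 peak in either replicate, above 90.4% and 92.4% of their lists, and this peak held a DBE. A second entry with the same interval, 44 bp upstream of that start, had a score of 93.9 and no counterpart within 100 bp in either replicate. A small nucleolar RNA gene, F07A11.15, and the non-coding F07A11.10 lay in this interval. The peak 853 bp upstream of the start of F07A11.6g.1 had a DBE too, with a score of 73.6, but with 31.0 in replicate 1 and 5.56 in replicate 2 it was weak in the second library. Its interval overlapped the non-coding F07A11.12. The peak 659 bp past the gene start, with 87.1, and the one in a 5' UTR, with 117, each had a counterpart within 100 bp in replicate 2 only. The nearest replicate 1 summit was 1426 bp from the former but 104 bp from the latter, just outside the matching distance. In all, 5 of the 13 peaks lay in a promoter window of din-1, 3 of them at the starts 13531 bp and 16490 bp into the gene.

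The sequences of 3 din-1 summits are shown, from chrII:11620436-11620586, chrII:11617897-11618047 and chrII:11635890-11636040, forward strand, to set the internal-start sites with a DBE beside the strongest upstream site. Capitals mark the DBE and, in the second, the core sequence AGTGCA of DAF-12 response elements.
din-1, 433 bp upstream of an internal start: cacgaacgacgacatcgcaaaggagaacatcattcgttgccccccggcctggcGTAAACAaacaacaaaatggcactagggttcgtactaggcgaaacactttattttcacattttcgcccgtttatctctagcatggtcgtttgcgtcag
din-1, 853 bp upstream of another internal start: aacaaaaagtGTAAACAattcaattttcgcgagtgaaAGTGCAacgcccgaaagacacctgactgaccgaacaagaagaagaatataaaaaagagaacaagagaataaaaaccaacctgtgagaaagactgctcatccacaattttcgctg
din-1, 2356 bp upstream of the gene start: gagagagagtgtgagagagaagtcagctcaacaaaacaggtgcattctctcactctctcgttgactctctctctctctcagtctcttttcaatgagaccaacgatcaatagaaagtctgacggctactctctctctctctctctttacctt

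Past the 3' end of din-1 lay 3 peaks whose nearest start belonged to the neighbour F07A11.5, with scores of 52.0, 128 and 68.6. The one of 128 lay 72 bp upstream of F07A11.5, with 72.1 in replicate 1 and 24.9 in replicate 2. The one of 68.6 had 20.2 in replicate 1 and 36.3 in replicate 2, and that of 52.0 had 39.1 in replicate 1 and no counterpart in replicate 2. Of the 228 genes at least as long as din-1, 6 had as many peaks, itself included, and their median was 1. The RefSeq bounds of din-1 were the same as those of Ensembl and left its 13 peaks unchanged.

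**Figure D2:**
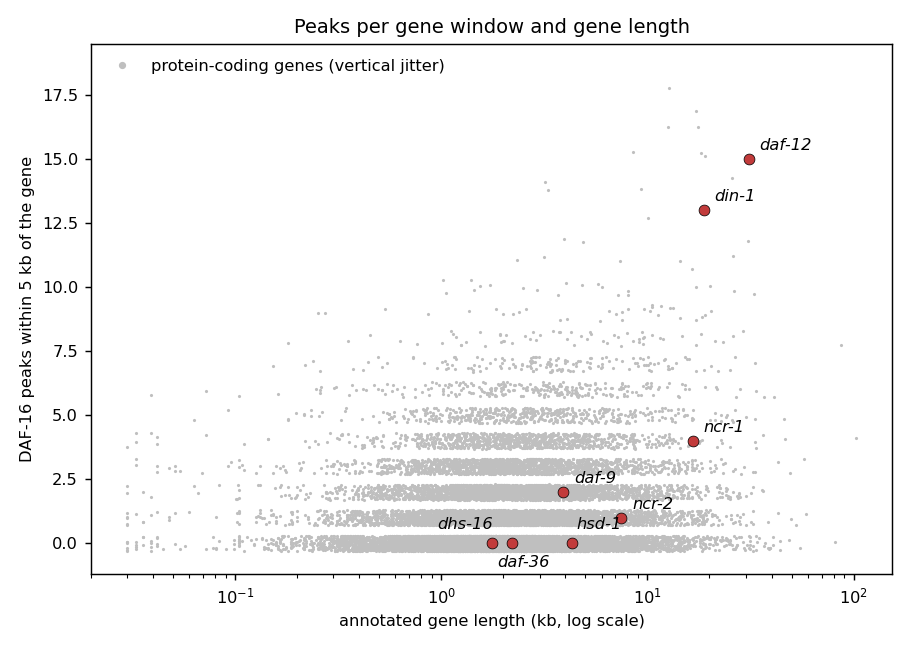
Number of DAF-16 peaks within 5 kb (vertical axis) against annotated gene length in kb (horizontal, log scale) for 19973 protein-coding genes in grey and the 8 pathway genes in red. The genes daf-12 (15 peaks) and din-1 (13) lie above nearly all genes of their length, while the 3 short genes daf-36, hsd-1 and dhs-16 lie at 0 with many others.

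The enzyme genes had no peak upstream or inside. The cytochrome P450 gene daf-9 (WBGene00000905, chromosome X, 6196927 to 6200823, forward strand) had 2 peaks, both past its 3' end and both nearer to bca-1, a carbonic anhydrase gene. The nearer, 2713 bp past the end and in a coding exon of bca-1, had a score of 89.2, with 41.9 in replicate 1 and 26.0 in replicate 2. The farther, 4259 bp past the end and 336 bp upstream of bca-1, had a score of 117, with 52.6 in replicate 1 and 41 in replicate 2. No entry of either replicate's list or of the pooled list, background regions included, lay upstream of daf-9 within 5 kb or inside the gene, at any of its 3 annotated starts. The pooled list added 1 entry in the window, 1393 bp past the end, with a score of 11.9, and replicate 2 added entries of 4.49 and 15, also past the end.

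The daf-9 promoter carried the letters of both elements without a peak. A DBE stood 627 bp and a DAE 137 bp upstream of the start, and the nearest summits of the thresholded list were 7236 bp and 6746 bp away. Over all protein-coding genes, 15.8% had a DBE and 24.9% a DAE in the same window around the gene start. The stretches around both elements, at chrX:6196225-6196375 and chrX:6196715-6196865 of the forward strand, with the elements in capitals, can be set beside the bound site 892 bp upstream of daf-12.
daf-9, DBE without a peak: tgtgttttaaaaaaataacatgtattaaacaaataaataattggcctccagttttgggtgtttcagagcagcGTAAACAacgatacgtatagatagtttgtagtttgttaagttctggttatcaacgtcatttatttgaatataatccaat
daf-9, DAE without a peak: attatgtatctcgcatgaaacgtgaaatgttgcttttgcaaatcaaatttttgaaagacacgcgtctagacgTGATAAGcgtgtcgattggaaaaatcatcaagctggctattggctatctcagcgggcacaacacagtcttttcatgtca

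The other short enzyme genes were empty in every list. The oxygenase gene daf-36 (WBGene00007536, 10223513 to 10225710 of chromosome V, reverse strand) had its nearest peak 18372 bp away, with a score of 63.2. The short-chain dehydrogenase gene dhs-16 (WBGene00000979, 5983745 to 5985509 of chromosome V, forward strand) had it 6510 bp past its 3' end, with a score of 162. Neither window held an entry in the list of replicate 1, replicate 2 or both pooled, although those lists include background regions.

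The gene hsd-1 (WBGene00012394, chromosome I, 13720125 to 13724453, reverse strand) also had no entry in any of these lists, and its nearest peak was 31283 bp away. Only 6.99% of protein-coding genes lay farther from a peak than hsd-1, 16.3% farther than daf-36 and 40.1% farther than dhs-16. An empty window was common at this length, since 47.3% of the 16742 genes of at most 5 kb had none, and 3 of the 4 pathway genes that short. No peak is a statement about these thresholds and this depth, and not that DAF-16 was absent. Among other short-chain dehydrogenase genes named dhs, 23 of 30 had a window peak (76.7%, dhs-16 counted among the 30), and among 75 cytochrome P450 genes with daf-9, 65 did (86.7%).

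The cholesterol transport genes differed from each other. The gene ncr-1 (WBGene00003561, chromosome X, 4472244 to 4488857, reverse strand) had 4 peaks, all found in both replicates. The strongest lay in an intron, 841 bp upstream of its internal transcript start, with a score of 151, and with 32.4 in replicate 1 and 56.6 in replicate 2. The interval of this peak overlapped the non-coding RNA gene F02E8.7. Another intronic peak had 82.8, with 36.5 in replicate 1 and 37.0 in replicate 2, above 65.8% and 76.8% of their entries. The remaining peaks lay 3547 bp upstream of the gene, 196 bp from the start of F46H6.5, with a score of 109, and past its 3' end, 289 bp from the start of asb-2, a mitochondrial ATP synthase subunit gene, with a score of 120. The first had 61.7 in replicate 1 and 42.8 in replicate 2, and the second 45.2 and 64.4. Outside the gene, then, the ncr-1 peaks were nearer to its neighbours. The internal start is on the Ensembl transcript F02E8.6.2 alone, and RefSeq does not list it, so that with RefSeq starts no ncr-1 promoter window held a peak.

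The ncr-1 summits with overlapping or adjoining elements are shown, from chrX:4480889-4481039 and chrX:4492329-4492479, forward strand, with DBE, DAE, GATA and AGTGCA letters in capitals.
ncr-1, intron, 841 bp upstream of the internal start: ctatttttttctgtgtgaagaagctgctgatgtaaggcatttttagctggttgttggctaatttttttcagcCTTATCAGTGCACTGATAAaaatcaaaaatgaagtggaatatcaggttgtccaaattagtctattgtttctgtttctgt
ncr-1, 3547 bp upstream of the gene: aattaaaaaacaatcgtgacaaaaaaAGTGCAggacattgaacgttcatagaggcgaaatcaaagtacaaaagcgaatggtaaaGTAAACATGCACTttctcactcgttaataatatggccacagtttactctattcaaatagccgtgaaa

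In the first, the run TTATCAGTGCACTGATAA from 4480962 to 4480979 is its own reverse complement, with a GATA site at each end and the DAF-12 core AGTGCA on both strands between them, and it lay across the summit. A DAE and this core stood together at 132 of 8748 nuclear summits (1.51%). In the second, the DBE was followed directly by a DAF-12 core on the reverse strand, TGCACT, and another core stood on its other side. These combinations were noticed in the sequences and are descriptions. That the letters match does not show that DAF-12 or a GATA factor was bound.

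The gene ncr-2 (WBGene00003562, chromosome III, 8258345 to 8265805, forward strand) had 1 weak peak, 2492 bp past its 3' end and 58 bp inside F09G8.7, with a score of 48.3, above 14.8% of nuclear peaks. It was not found in replicate 1, whose list had no entry anywhere in the window, and had 2.82 in replicate 2. A DBE stood 341 bp upstream of ncr-2, and the nearest summit was 10293 bp from it. The pooled list held 4 entries in the ncr-2 window, the thresholded peak included. Of the others the highest were 34.2, 146 bp past the gene end, and 33.6, just under the lowest thresholded score of 35.4. Replicate 2 held 8 entries there, the highest 17.4. The 2 Niemann-Pick homologues thus differed in number of thresholded peaks, 4 against 1, and of pooled entries, 12 against 4, with ncr-1 also the longer gene.

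Promoter peaks were found at 3 of the 8 genes, daf-12, din-1 and ncr-1, against 23.9% of all protein-coding genes, and at none of the 4 enzyme genes. With RefSeq gene bounds and starts, din-1 alone remained. With the narrower window of 500 bp upstream to 100 bp downstream the count was 1 as well. All 35 peaks had a median score of 93.9, against 107 for all nuclear peaks, and 17 of them exceeded that median. By position, 16 summits were intergenic, 15 intronic, 2 in coding exons of neighbours, 1 in a 5' UTR and 1 in a 3' UTR. The nearest protein-coding start was that of the pathway gene itself for 24 of 35 (68.6%).

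Not every peak was seen in both libraries. Summits were found within 100 bp in both replicates for 23 of the 35 peaks (65.7%), against 77.3% of all nuclear peaks, with no test of that difference. Of the 12 others, 6 lacked a counterpart in replicate 1, 5 in replicate 2 and 1 in both. They had a median score of 60.1 and the matched ones 120, an order also seen over the whole list, where the medians were 55.7 and 133. Several peaks here stand close together, and 1 interval was listed with 2 summits. Matched within 50 bp were 19 of the 35, and within 200 bp 27. The shares of all nuclear peaks at those distances are not given here. Replicate 1 had the higher score at 16 of the 23 matched peaks, as it had at 68% of all 6758 matched nuclear peaks. The lists themselves differed, with median scores of 16.8 in replicate 1 and 11 in replicate 2, so this is no comparison of rank. Spearman's rho between the replicates was 0.36 across the 23 peaks and 0.74 across the 6758. Both are descriptions across peaks, which share libraries and are not independent.

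**Figure D3:**
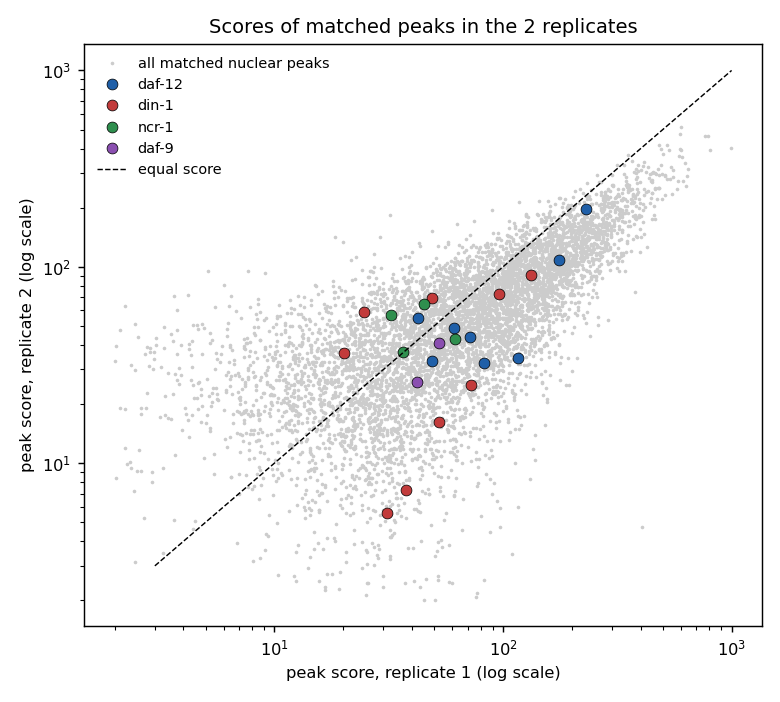
Score of each matched peak in replicate 2 (vertical, log scale) against replicate 1 (horizontal, log scale), for 6758 nuclear peaks in grey and the 23 matched peaks of daf-12, din-1, ncr-1 and daf-9 in colour. The dashed line marks equal scores, which need not mean equal rank in the lists of the replicates. The strongest daf-12 peak (230 and 196) lies at the upper right, and the weakest din-1 peak in replicate 2 (5.56) at the bottom.

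Short sequence elements at the 35 summits were counted beside all 8748. A DBE lay within 75 bp of 7 peaks (20%), against 8.94%, of which 6 belonged to daf-12 and din-1 and 1 to ncr-1. Among these 7, the daf-12 peaks 1323 bp and 21836 bp past the gene start lacked a summit within 100 bp in replicate 2. A DAE lay at 7 (20%), against 21.8%, and a GATA site at 8 (22.9%), against 42.5%, and all but 1 of these 8 peaks also had a DAE. With letters counted within 150 bp, a GATA site lay at 13 of 35. The share of all peaks at that distance is not given here. With the stronger 50% of peaks a GATA site lay at 4 of 17, and the share over all the stronger peaks is not given either. With a window of 2 kb it lay at 5 of 22. Within the called intervals themselves lay the DBE of 6 of these 7 peaks and the DAE of 4 of 7. The DAF-12 core sequence AGTGCA lay at 6 (17.1%), against 7.8%, of which 3 were at din-1, 2 at ncr-1 and 1 at daf-12. Of these, the daf-12 peak (score 57.4) and the din-1 peaks of 93.9 and 117 lacked a summit within 100 bp in 1 or both replicates. The E-box CACGTG lay at 2, against 6.02%. As controls, the reversed DBE ACAAATG lay at 1, against 4.07%, and the reversed DAE ACTATTC at 2, against 2.29%. With 35 peaks a difference of 1 or 2 peaks moves these shares by several percent, and no share was tested. The DBE count fell to 4 when the strongest peaks of replicate 2 alone were used.

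**Figure D4:**
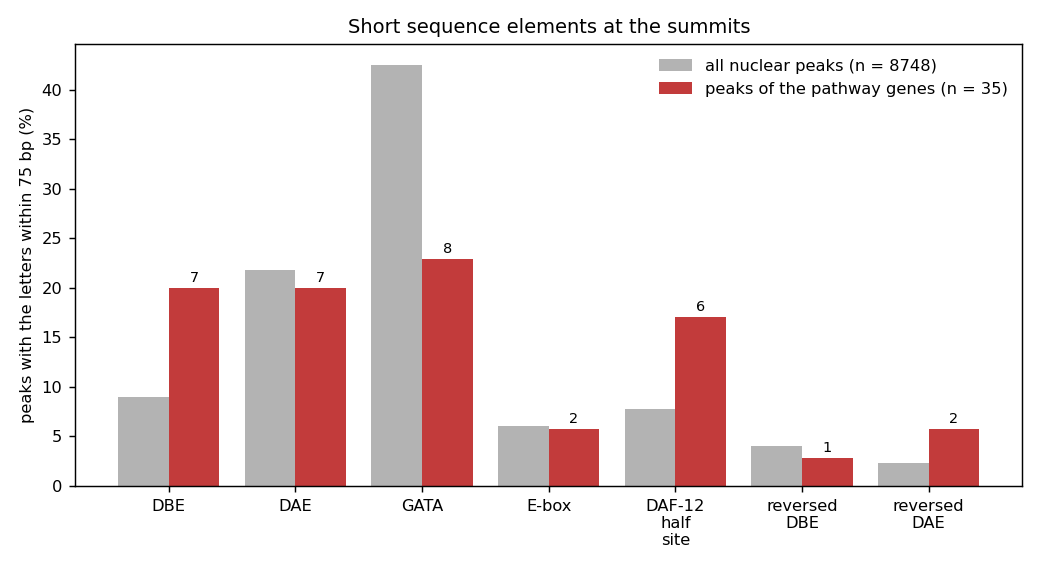
Percentage of summits with each short sequence within 75 bp (vertical axis), for all 8748 nuclear peaks in grey and the 35 peaks of the pathway genes in red, with the number of pathway peaks above each red bar. The share is higher here for the DBE (20% against 8.94%) and the DAF-12 core AGTGCA (17.1% against 7.8%). Some of the DBE peaks and some of the AGTGCA peaks were not matched in both replicates. The share is lower for GATA (22.9% against 42.5%). Its count here was 13 with letters counted within 150 bp, a distance at which the share of all peaks is not given. No share was tested.

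Other sterol genes and genes downstream of the receptor had peaks as well. Of 13 further genes linked to sterols or steroids, 11 had a window peak and 6 a promoter peak, with a median of 2 window peaks, beside the 54.3% and 23.9% of all protein-coding genes. The genes are not separate observations, since stdh-1 and stdh-3, and hsd-2 and hsd-3, share window peaks. The strongest promoter peaks belonged to nhr-8, a nuclear receptor gene related to daf-12 (score 224), the steroid dehydrogenase homologue stdh-1 (194), let-767 (163), a steroid dehydrogenase-like gene, and nhr-48, another relative of daf-12 (150), all 4 found in both replicates. The steroid dehydrogenase homologues stdh-2 and stdh-4 had no window peak. Of 11 genes downstream of DAF-12 or needed for its part in germline longevity, 10 were found by name in the annotation, and all 10 had a window peak, 6 of them in the promoter, beside the same background. That background is of protein-coding genes, while some of the 10 are microRNA genes. Among these mir-48 and mir-241 share all 6 of their peaks. The strongest promoter peaks were those of kri-1 (298), which acts in that longevity, mir-241 (167), a microRNA of the let-7 family under DAF-12 control, the heterochronic gene lin-28 (136) and tcer-1 (71.5), each matched in both replicates.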

How the data were processed

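Chromatin immunoprecipitation of tagged DAF-16 from whole L4 larvae was sequenced in 2 biological replicates, per the labels. The authors deposited narrowPeak lists on ce11 for each replicate, for both pooled and for the IDR-thresholded set, derived from alignments with a control, per the deposited listing of files. The peak score used here is the authors' deposited signal value, of unstated scale. Which aligner and caller were run, and at what IDR cutoff, is not given in the sources used here. Lists on ce10 were not used.

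Summits were compared with Ensembl release 115 and, added after seeing the data, RefSeq gene bounds of the same assembly, after chromosome lengths had been checked against the largest peak ends. Mitochondrial peaks were left out. The members, lists and motifs were chosen with earlier results of these data known, so no test was made. Named genes beside the 8 were the 4 strongest promoter peaks and every gene without a window peak of 2 lists, and the nearest starts of window peaks. The counting steps were tested on made-up peaks. Scripts ran under Python 3.11.15 with pandas 2.3.3, numpy 2.4.6, matplotlib 3.10.9 and scipy 1.17.1.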

Additional observations from a re-analysis of the deposited data

How the results depend on the processing

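Of 65 alternative values, 12 could only restate the reported value, since the thresholded list holds the strongest pooled entries, and 2 matched counts use the left-out replicate again. Of the other 51, 39 stayed within 1.5 times the reported count and 12 moved further. With the stronger 50% of peaks the windows held 17 peaks, 15 matched in both replicates, 4 with a DAE and 4 with a GATA site. With a window of 2 kb, 3 genes had a peak, with 22 peaks, 12 matched and 5 with a GATA site. A promoter peak was left at 1 gene both with 500 bp upstream to 100 bp downstream and with RefSeq gene bounds and transcript starts, the latter chosen after seeing the data. With motifs counted within 150 bp, 13 peaks had a GATA site. With 1 replicate left out at a time, the strongest peaks of the other gave 4 to 5 genes with a window peak, 33 to 33 peaks, 3 to 3 genes with a promoter peak, 4 to 6 with a DBE, 6 to 7 with a DAE and 9 to 10 with a GATA site, the 4 being without replicate 1. The cause of these moves was not tested beyond what each alternative leaves out. The windows of daf-36, hsd-1 and dhs-16 were empty under each peak set tried. No paired analysis was possible because the series has 1 group and no test was made. The depth is unknown and limits what an empty window means.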
